A study of Mus musculus with 8 samples.

Results

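The NMDA receptor subunit genes were taken by gene symbol from the platform annotation: Grin1, Grin2a, Grin2b, Grin2c, Grin2d, Grin3a and Grin3b. Rows for 6 of the 7 were measured here, each as 1 transcript cluster, among 19938 genes tested. Grin1 was not analysed here. The arrays held RNA from hippocampal neurons of ICR mice, an outbred strain, dissected at E17.5 and grown for 10 days, to which 50 µM bicuculline was given for 0, 30, 180 or 300 min. Each time had 2 biological replicates on Affymetrix Mouse Gene ST 1.0 arrays, 8 arrays in all, and the 0 min cultures served as the only control. The labels gave neither a vehicle-treated culture at the later times nor the number of animals behind a culture. The p-values thus rest on the spread between arrays, which limma draws for each gene toward the spread over all genes.

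NMDA receptors are glutamate-gated channels that pass calcium when glutamate binds while the membrane is depolarised. A receptor joins obligatory GluN1 subunits, from Grin1, with GluN2 subunits (Grin2a to Grin2d) that bind glutamate and set the channel's kinetics, or with GluN3 subunits (Grin3a, Grin3b) that bind glycine and reduce calcium flow. In the forebrain GluN2B prevails early in life and GluN2A is added as synapses mature. Bicuculline blocks GABA-A receptors, so that firing and glutamate release rise and NMDA receptors open more often.

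Signals are on a log2 scale, where a difference of 1 is a doubling. The array medians lay between 4.84 and 4.88. As a mark of background, 95% of the 1015 olfactory receptor genes had a mean signal under 4.47. Npas4, Fos and Arc, genes induced by neuronal activity, rose at 30 min (limma adjusted p between 2.67e-09 and 2.02e-06), and Bdnf rose at 180 and 300 min (adjusted p of 0.000801 and 0.000593). All 6 neuron markers and all 4 measured markers of glutamatergic neurons lay above the background mark. So did 6 of 6 astrocyte and 6 of 6 interneuron markers, 4 of 6 microglial ones and 4 of 5 of the oligodendrocyte lineage. The same held for 3 of 3 dentate granule cell markers, 2 of 5 endothelial and pericyte ones and 1 of 2 of dividing cells. Of all genes tested, 67.9% lay above that mark, so counts near that share do not show that a cell type was present. In such bulk RNA, fewer cells of a type and less RNA per cell cannot be told apart.

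None of the 6 subunit genes passed the test at 30, 180 or 300 min against 0 min (limma with Benjamini-Hochberg adjustment over all genes, threshold 0.05), where 0.0953%, 0.331% and 0.286% of all genes passed. At an unadjusted p under 0.05 the counts were 0 of 6 at 30 min, 2 of 6 at 180 min and 1 of 6 at 300 min, against 5.11%, 12.8% and 8.96% of all genes. Those genes were Grin2b at both late times and Grin3a at 180 min, each lower than at 0 min. The median change of the 6 genes was 0.08 at 30 min, −0.10 at 180 min and −0.05 at 300 min, while that of all genes was 0.00, 0.00 and 0.00. For genes above the background mark it was −0.02, −0.04 and −0.02. The moderated F test over the 4 times also passed none of the 6 (0.813% of all genes passed), and 2 of 6 had an unadjusted p under 0.05, beside 11% of all genes. Its smallest adjusted p was that of Grin2b, 0.0724. Grin2b passed that F test when dim genes were left out.

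**Figure D1:**
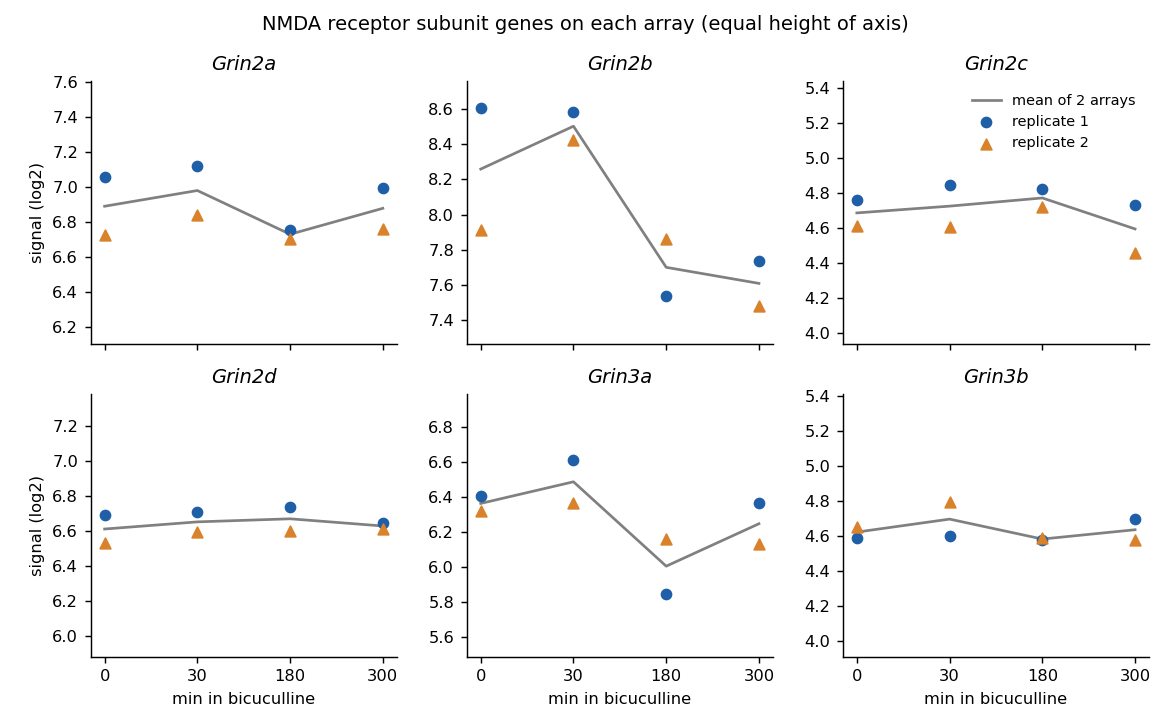
Signal of each subunit gene (log2, y axis; every panel spans the same height) against min in bicuculline (x axis, categories). Circles and triangles are replicates 1 and 2 and lines join the means of 2 arrays; Grin2b shows the widest range over the arrays, 1.13, and Grin2d the narrowest, 0.21.

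Grin2b encodes GluN2B, the glutamate-binding subunit that dominates in young forebrain neurons. Its signal (transcript cluster 10548791) was 8.61 and 7.91 at 0 min, 8.58 and 8.42 at 30 min, 7.54 and 7.86 at 180 min, and 7.73 and 7.48 at 300 min. Each of the 4 late arrays lay below each of the 4 early ones, although the higher 180 min array and the lower 0 min array were only narrowly apart. Ordered by mean signal, 30 min came first (8.50 ± 0.11), then 0 min (8.26 ± 0.49), 180 min (7.70 ± 0.23) and 300 min (7.61 ± 0.18, SD, n = 2 each). The means of 30 and 0 min differed by less than the SD at 0 min, and those of 180 and 300 min by less than the SD of either.

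Against 0 min, the log2 change of Grin2b was 0.24 at 30 min (95% confidence interval −0.17 to 0.65, limma adjusted p = 0.975). It was −0.56 at 180 min (−0.97 to −0.15, adjusted p = 0.242) and −0.65 at 300 min (−1.06 to −0.24, adjusted p = 0.242). The late values correspond to 0.68 and 0.64 times the 0 min signal, but with a standard error of 0.19 a change of 0.97 at 180 min or 0.99 at 300 min was needed to pass. That error was drawn by limma toward the spread over all genes (prior SD 0.133), so it is smaller than the Grin2b arrays alone would give. The 2 arrays at 0 min stood 0.70 apart, a gap reached by 0.386% of all genes at that time. Without 0 min replicate 1 the change was −0.21 at 180 min and −0.31 at 300 min, and without 0 min replicate 2 it was −0.91 and −1.0005, the last with an adjusted p of 0.0502. The sign at 30 min turned without 0 min replicate 2, to −0.10. The size of the Grin2b difference from 0 min thus depended on which 0 min array was used, and its sign at the late times did not.

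The 30 min arrays of Grin2b lay closer together, 0.16 apart. Against 30 min, its change was −0.81 at 180 min (95% confidence interval −1.22 to −0.40, limma adjusted p = 0.103), where 0 of the 6 subunit genes passed beside 0.502% of all genes and 2 had an unadjusted p under 0.05 beside 10.5%. Leaving out a 0 min array does not alter this change, but it takes the 0 min gap of Grin2b (0.70) out of its spread. Any call of Grin2b in such a fit is therefore no added support. A further pair of contrasts of the same model was added after the values had been seen. The adjustment covers the number of genes and not this choice, so the adjusted p of these contrasts are too favourable. At 300 min against 30 min Grin2b was lower by the test, with a log2 change of −0.90 ± 0.19 (SE, interval −1.31 to −0.49, adjusted p = 0.0457), as 0.181% of all genes were. With 180 and 300 min pooled against 0 and 30 min it was lower by −0.73 ± 0.14 (SE, interval −1.02 to −0.44, adjusted p = 0.0116), as 1.01% of all genes were. In both contrasts Grin2b was the 1 subunit gene of 6 that passed.

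Both of these calls were lost when rows without a single gene symbol were also tested, with adjusted p of 0.307 for 300 against 30 min and 0.181 for the pooled times and the same log2 changes. The first was also lost without either 30 min array or either 300 min array (adjusted p between 0.139 and 0.386, changes of −1.02 to −0.77). The second was lost without 30 min replicate 1 (0.0724), 180 min replicate 1 (0.0508) or 300 min replicate 2 (0.0578), with changes of −0.69 to −0.65.

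**Figure D2:**
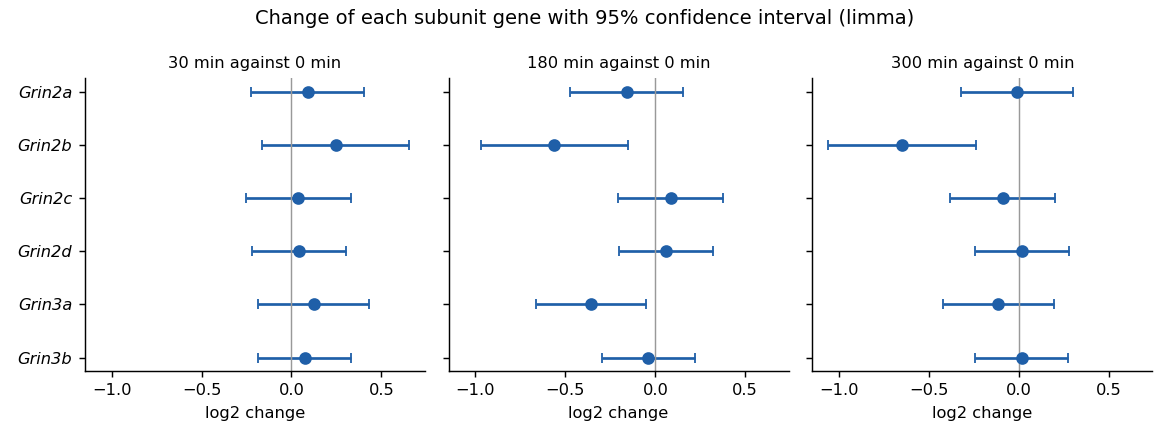
Log2 change (x axis) of the 6 subunit genes (rows) at 30, 180 and 300 min, each against 0 min; points are limma estimates from 2 arrays a time and bars are 95% confidence intervals, not adjusted for the number of genes. The intervals of Grin2b at 180 and 300 min and of Grin3a at 180 min lie below 0, and the other 15 include it.

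Grin2a encodes GluN2A, the subunit that is added to forebrain synapses as they mature. Its signal (transcript cluster 10437629) was 7.06 and 6.73 at 0 min, 7.12 and 6.84 at 30 min, 6.76 and 6.70 at 180 min, and 6.995 and 6.76 at 300 min. The 180 and 0 min arrays overlapped, as did the 300 and 0 min arrays, while both 180 min arrays lay below both 30 min arrays. The log2 change against 0 min was 0.09 at 30 min (95% confidence interval −0.22 to 0.40), −0.16 at 180 min (−0.47 to 0.15) and −0.01 at 300 min (−0.32 to 0.30), with limma adjusted p of 0.990, 0.692 and 0.992. Ordered by mean, 30 min came first (6.98 ± 0.20), then 0 min (6.89 ± 0.23), 300 min (6.88 ± 0.16) and 180 min (6.73 ± 0.04, SD, n = 2 each), and no neighbours in that order differed beyond the larger of their SDs.

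The difference Grin2b minus Grin2a, centred on its mean over the 8 arrays, was 0.40 and 0.04 at 0 min, 0.32 and 0.44 at 30 min, −0.37 and 0.01 at 180 min, and −0.41 and −0.43 at 300 min. Both 300 min arrays lay far below all early arrays, and 1 of the 180 min arrays lay just below the lower 0 min array. The separation at 180 min depended on the partner. Set against Grin3a in the same way, both 180 min arrays (−0.05 and −0.04) lay above 0 min replicate 2 (−0.15), and against Grin3b 180 min replicate 2 (−0.11) lay above 0 min replicate 2 (−0.12). Both 300 min arrays lay below all 4 early arrays with each of the 5 partners. These differences were not tested. The absolute level of Grin2b minus Grin2a has no meaning, since the probes of these genes differ.

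Grin2d, whose GluN2D subunit gives slow channels and is found mainly in interneurons of the hippocampus, stayed in the narrowest range. Its signal (transcript cluster 10563421) was 6.69 and 6.53 at 0 min, 6.71 and 6.59 at 30 min, 6.74 and 6.60 at 180 min, and 6.64 and 6.61 at 300 min. The arrays of all times overlapped. The log2 changes against 0 min were 0.04, 0.06 and 0.02 at 30, 180 and 300 min, with 95% confidence intervals that together ran from −0.24 to 0.32 and limma adjusted p of 0.990, 0.879 and 0.984.

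Grin2c, which encodes GluN2C, a subunit known chiefly from cerebellar granule cells, was close to the background mark of 4.47. Its signal (transcript cluster 10392863) was 4.76 and 4.61 at 0 min, 4.85 and 4.60 at 30 min, 4.82 and 4.72 at 180 min, and 4.73 and 4.46 at 300 min. The arrays of each later time overlapped those of 0 min, and the changes of 0.04, 0.09 and −0.09 had intervals within −0.38 to 0.38 (limma adjusted p of 0.991, 0.832 and 0.902). Its mean over the 8 arrays was 0.22 above that mark.

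Grin3a encodes GluN3A, a glycine-binding subunit of immature synapses that lowers calcium flow. Its signal (transcript cluster 10512919) was 6.40 and 6.32 at 0 min, 6.61 and 6.36 at 30 min, 5.84 and 6.16 at 180 min, and 6.36 and 6.13 at 300 min. Both 180 min arrays lay below all arrays of 0 and 30 min, and the 300 min arrays overlapped those of 0 min. The log2 change at 180 min was −0.36 (95% confidence interval −0.67 to −0.05, limma adjusted p = 0.316), or −0.20 without 180 min replicate 1 and −0.52 without replicate 2. At 300 min it was −0.12 (−0.42 to 0.19, adjusted p = 0.872), and at 30 min 0.12 (−0.18 to 0.43, adjusted p = 0.985).

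By mean, the highest Grin3a signal was that of 30 min (6.48 ± 0.17), followed by 0 min (6.36 ± 0.06), 300 min (6.24 ± 0.17) and 180 min (6.003 ± 0.22, SD, n = 2 each). Only the last step, of 300 against 180 min, was larger than both SDs, at 0.24 (−0.06 to 0.55, limma adjusted p = 0.852). Against 30 min the 180 min change was −0.48 (−0.79 to −0.17, adjusted p = 0.212). With both late times pooled against both early ones it was −0.30 (−0.52 to −0.08, adjusted p = 0.164). Grin2b and Grin3a were thus the pair of subunit genes with an unadjusted p under 0.05 for the pooled times, and 14.3% of all genes had one.

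Grin3b, which encodes GluN3B, a subunit known mainly from motor neurons, was also near background. Its signal (transcript cluster 10364583) was 4.59 and 4.65 at 0 min, 4.60 and 4.80 at 30 min, 4.58 and 4.59 at 180 min, and 4.70 and 4.58 at 300 min. The 180 min arrays lay just below both 0 min arrays, by a margin far smaller than the spread at 30 or 300 min. The log2 changes were 0.07, −0.04 and 0.01, with intervals within −0.30 to 0.33 (limma adjusted p of 0.990, 0.923 and 0.989).

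Counted over the 6 genes, both arrays at 180 min lay below both at 0 min for Grin2b, Grin3a and Grin3b, 3 of 6 where 22.6% of all genes did so. At 300 min this held for Grin2b alone, 1 of 6 where 19.6% of all genes did so, and at 30 min no subunit gene had separate arrays, where 19.2% of all genes were wholly higher and 18.3% wholly lower. With all 4 late arrays below all 4 early ones, Grin2b was again 1 of 6, where the share of all genes was 5.36%. Both arrays at 180 min lay below both at 30 min for Grin2a, Grin2b, Grin3a and Grin3b, 4 of 6 where 22.4% of all genes did so. Both arrays at 300 min lay above both at 180 min for Grin2a, 1 of 6 where 16.8% of all genes did so. No subunit gene passed the limma test for 300 against 180 min, where 0% of all genes passed, and none of the 6 had an unadjusted p under 0.05, as 5.72% of all genes had. The widest interval for a subunit gene between those times was that of Grin2b, −0.50 to 0.32 around a change of −0.09.

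**Figure D3:**
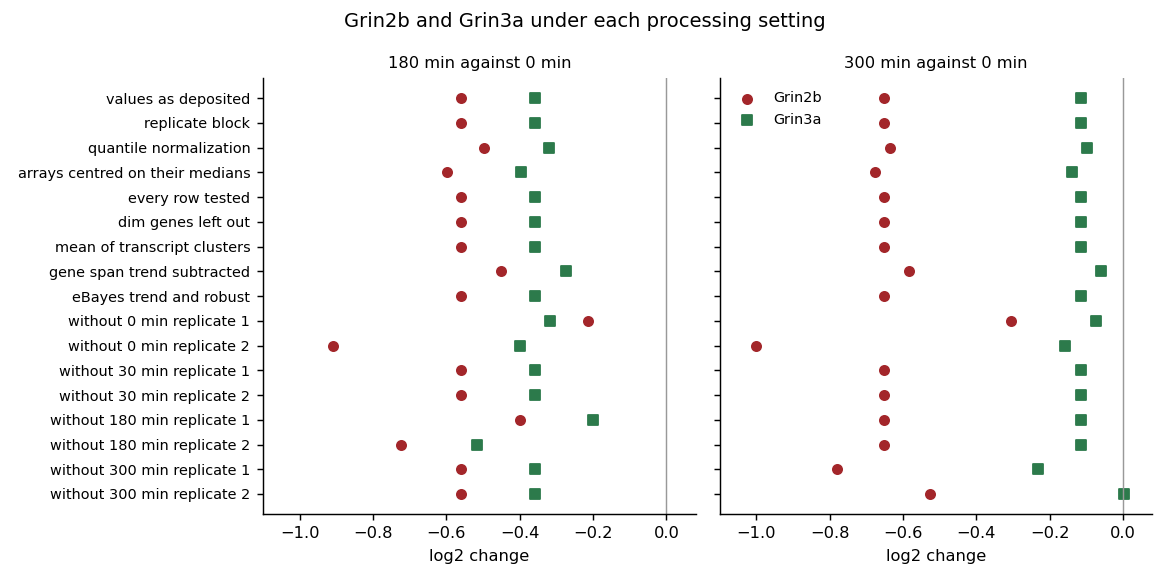
Log2 change (x axis) of Grin2b (circles) and Grin3a (squares) at 180 and 300 min against 0 min under each processing setting (rows), where the top row holds the values as deposited. Grin2b runs from −0.91 to −0.21 at 180 min and from −1.0005 to −0.31 at 300 min, with both ends set by leaving out a 0 min array.

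Replicate 1 was above replicate 2 at all 4 times for Grin2a, Grin2c and Grin2d, at 3 of 4 times for Grin2b and Grin3a, and at 1 of 4 for Grin3b. For Grin2b and Grin3a the exception was 180 min, where replicate 1 was the lower by 0.32 in each gene. The replicate number taken as a block moved no subunit gene across the threshold.

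Grin2b, Grin2a and Grin3a are also the longest of these genes, with spans of 460, 428 and 184 kb in the RefSeq annotation of assembly GRCm38.p6, while Grin2d spans 39.3 kb, Grin2c 18.1 kb and Grin3b 6.79 kb. Among genes above the background mark, long genes had lower late signals. At 180 min against 0 min the median log2 change was −0.14 for the 464 genes of 300 kb and over and −0.10 for the 1449 genes of 100 to 300 kb, against −0.05 for the 7766 genes of 10 to 100 kb and 0.02 for the 3823 genes under 10 kb. Grin2a at −0.16 lay near the median of its class, and Grin3a was among the lowest 10.9% of its own. Grin2b was among the lowest 10 of its 464 genes at 180 min, and among the lowest 2 at 300 min, where the class median was −0.10. A trend on gene span was also fitted on each array over all genes with a known span, dim ones included. With this trend subtracted, the Grin2b change was −0.45 at 180 min and −0.58 at 300 min (limma adjusted p of 0.344 and 0.286). The calls for 300 against 30 min and for the pooled times were still made with that trend subtracted, at −0.84 and −0.64 (adjusted p of 0.0434 and 0.0164). Those 2 contrasts had been chosen after the values were seen, which the adjusted p do not take into account.

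**Figure D4:**
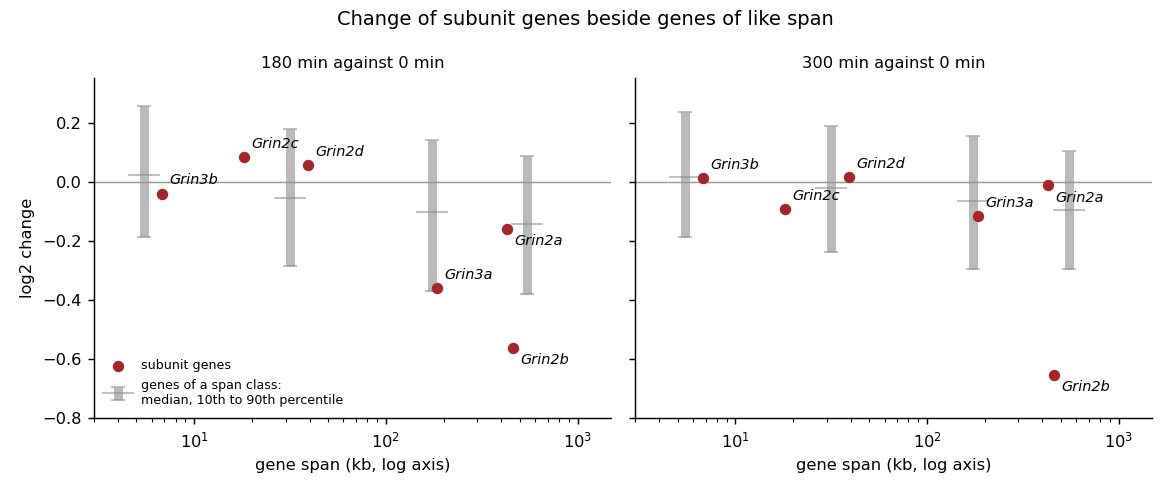
Log2 change (y axis) at 180 and 300 min against 0 min by gene span (kb, log x axis). Grey bars run from the 10th to the 90th percentile of genes above background in 4 span classes, drawn at 1 position per class with the median as a dash, and red points are the subunit genes; Grin2b lies below the bar of its class at both times.

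The genes whose signals ran closest to Grin2b over the 8 arrays were Pcdh19, a protocadherin gene, Purg, which encodes a purine-rich element binding protein, Kmt2d, a histone methyltransferase gene, Arfgef3, and Pclo, the gene of the presynaptic scaffold piccolo. Likeness was the root mean square difference after each gene was centred on its own mean, taken over 12894 named genes above background. It was 0.08 for Pcdh19 and at most 0.15 for the other 4, where Grin2b itself had a root mean square deviation of 0.43 from its mean. At 300 min against 0 min the log2 change was −0.65 for Grin2b, −0.64 for Pcdh19, −0.49 for Purg, −0.36 for Kmt2d, −0.32 for Arfgef3 and −0.51 for Pclo, and the F test over the times passed none of the 5 (limma adjusted p between 0.0938 and 0.262). At 0 min replicate 1 lay above replicate 2 by 0.70 in Grin2b and by 0.65 to 0.83 in the 5 genes, so the likeness includes a difference between replicates. Since the 5 genes were picked for likeness on these same arrays, their late fall and their 0 min gap follow from the choice. The part of that gap in the late difference was not tested. Grin3a ranked 267th and Grin2a 932nd by this measure.

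**Figure D5:**
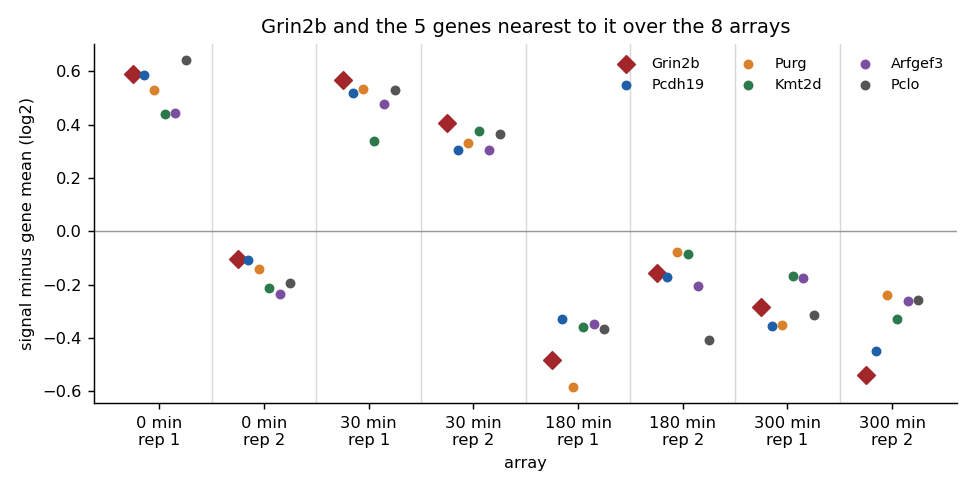
Signal minus the gene's own mean (log2, y axis) on each of the 8 arrays (x axis) for Grin2b (diamonds) and the 5 genes nearest to it (circles). All 6 genes are high on 0 min replicate 1 and both 30 min arrays and below their means on 0 min replicate 2 and all late arrays. The 5 were picked for likeness on these same arrays.

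Genes that hold, modify or act with the receptor were read from the same fit in 5 lists, of which 53 of 59 entries were measured. None passed at 30, 180 or 300 min against 0 min. At an unadjusted p under 0.05, 0 were higher and 10 lower at 180 min, where 5.71% and 7.07% of all genes were, 1 was lower at 30 min, where 2.34% of all genes were. At 300 min, 1 was higher and 2 lower, beside 4.25% and 4.71% of all genes. The median change of the 53 genes at 180 min was −0.12, beside 0.00 for all genes and −0.04 for genes above the background mark. Among the latter, genes of 100 to 300 kb had a median of −0.10 and those of 300 kb and over −0.14. The spans of the 53 genes were not set against these classes, and a part of span in their median was not tested. At 300 min the median of the 53 genes was −0.04, beside −0.02 for genes above the mark.

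Of 19 scaffold and trafficking genes, 4 had an unadjusted p under 0.05 at 180 min, all lower (median −0.05). Dlg3, which encodes the scaffold SAP102 that binds GluN2 tails, was at −0.38 ± 0.12 (SE, limma adjusted p = 0.219). Actn2, an alpha-actinin gene whose protein links the receptor to actin, was at −0.33 ± 0.13 (adjusted p = 0.294). It was already at −0.29 ± 0.13 at 30 min (adjusted p = 0.955) and at 0.001 ± 0.13 at 300 min. Of 12 measured kinases and phosphatases, 3 were lower at that level (median −0.17). Cdk5r1, the gene of the Cdk5 activator p35, was at −0.26 ± 0.12, and Ptpn5, whose phosphatase STEP acts on GluN2B, at 0.17 ± 0.11 (adjusted p of 0.383 and 0.565).

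Of 10 measured genes acting downstream of calcium entry, 3 were lower at an unadjusted p under 0.05 at 180 min (median −0.12). Kalrn, an exchange factor gene of dendritic spines, was at −0.35 ± 0.13 at 180 min and −0.30 ± 0.13 at 300 min (SE, limma adjusted p of 0.301 and 0.524). Crtc1, whose protein carries calcium signals to CREB in the nucleus, was at −0.17 ± 0.12 and −0.23 ± 0.12 (adjusted p of 0.595 and 0.616) and was not 1 of those 3. Among 7 genes of co-agonist supply none reached that level at 180 min, and Slc1a4, a serine transporter gene, was at −0.37 ± 0.15 at 300 min (adjusted p = 0.482). Slc7a10, a transporter gene for glycine and D-serine, was at 0.24 ± 0.15 at 300 min (adjusted p = 0.707) and −0.06 ± 0.15 at 180 min. None of the 5 measured extracellular and membrane modulators reached that level against 0 min. The reelin receptor gene Lrp8 was at −0.19 ± 0.12 and the matrix protease gene Mmp9 at −0.18 ± 0.14 at 180 min. Mmp9 and Slc7a10 had mean signals of 4.83 and 4.89, not far above the background mark of 4.47, which limits what could be seen.

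No marker of neurons as a whole, glutamatergic neurons, interneurons or glia passed the test at any time against 0 min. The mean of the 6 neuron markers was 9.45 to 9.56 on the 180 min arrays and 9.62 to 9.65 on the 300 min arrays, against 9.59 to 9.61 at 0 min. That of the 4 measured glutamatergic markers was 8.47 to 8.48 and 8.60 to 8.61, against 8.51 to 8.52 at 0 min, and that of the 6 astrocyte markers 5.99 to 6.17 and 5.86 to 6.13, against 5.99 to 6.23. For the 6 interneuron markers it was 8.41 to 8.44 at 180 min and 8.25 to 8.41 at 300 min, against 8.29 to 8.30 at 0 min. Single glutamatergic markers differed in direction at 180 min, with Slc17a6 at 0.36 and Neurod6 at −0.33 (limma adjusted p of 0.256 and 0.348). Of the markers, Prox1, which encodes a homeodomain factor of dentate granule neurons, was the 1 that passed, with a change of −0.66 at 300 min (limma adjusted p = 0.0392). The other granule cell markers differed in direction at 300 min: C1ql2, a synaptic C1q-like protein gene, was at 0.58 (adjusted p = 0.16) and Calb1, the calbindin gene, at −0.12 (adjusted p = 0.85). The 3 together averaged 6.06 to 6.20 at 300 min, against 6.13 to 6.26 at 0 min. Their part in the Grin2b values was not tested.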

How the data were processed

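The deposited table held 1 signal per transcript cluster and array. The authors' values were taken as log2, from their range of 1.22 to 14.96; the base, background correction, probe summary, scaling, software and genome build are not given in the sources used here. Background left in dim signals would shrink changes. Of 35399 rows, 21789 carried 1 gene symbol (21698 matched to RefSeq, GRCm38.p6), 1621 several and 11989 none; several-symbol and unnamed rows were left out. For a gene with several clusters the brightest stood for it, which left 19938 genes. Arrays carry no read depth, and their number limits precision.

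A mean per time was fitted to 8 arrays with limma 3.58.1 in R 4.3.3 (lmFit, eBayes; 4 residual and 14.1 total degrees of freedom, two-sided, Benjamini-Hochberg). Unadjusted p-values are given where none passed. On simulated data for 180 against 0 min over 19938 genes, 97.4% of changes of 1 and 14.8% of changes of 0.5 were called, with 4.73% of calls false. The simulated noise was independent and normal, with spreads drawn from the fitted limma prior (SD 0.133). Grin2b had a wider spread and needed a change of 0.97 at 180 min, so these rates do not hold for it. The members and lists were chosen with earlier results of these data known. Every measured member is named, with 2 genes per list by F test. Over all genes, the differences between replicates 1 and 2 were nearly uncorrelated between times (correlations −0.09 to 0.09). Alternatives covered normalization, filter, rows, clusters, gene span, eBayes settings, the replicate block and each array left out.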

Additional observations from a re-analysis of the deposited data

How the results depend on the processing

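Under 16 alternatives, 0 subunit and 0 pathway genes passed at 30, 180 or 300 min against 0 min. Leaving out single arrays gave 0 to 1 subunit genes for 180 against 30 min, for any time, for 300 against 30 min and for the pooled times; the F test gave 1 without dim genes, and the last 2 gave 0 with every row tested. With the replicate block the subunit counts were the same in all 8 comparisons, and 19, 53 and 49 genes passed over all genes at 30, 180 and 300 min. Of the 6 correlations of replicate differences between times, taken over all genes, 3 were above 0. They cannot tell whether equal numbers mark a shared preparation, which the labels do not state.

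Over all genes, testing every row gave 1, 5, 9 and 13 genes at 180 min, at 300 min, for 180 against 30 min and for any time, against 66, 57, 100 and 162. The trend and robust settings gave 108, 91, 156 and 255, and leaving out dim genes 101 at 180 min and 98 at 300 min. Leaving out single arrays gave 12 to 21 at 30 min, 15 to 68 at 180 min, 17 to 61 at 300 min, 17 to 93 for 180 against 30 min, 0 to 14 for 300 against 180 min and 49 to 171 for any time.

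Of 352 member values under alternatives, 25 had the sign turned, 6 of them other than by leaving out an array; no call was behind any. At 300 min Grin2a was 0.0062 after quantile normalization and 0.057 with the span trend subtracted, Grin2d was −0.0062 with medians centred, and Grin3b was −0.013, −0.0076 and −0.00996 under those 3. Leaving out arrays gave, at 30 min, Grin2a −0.076 to 0.255, Grin2b −0.103 to 0.592, Grin2c −0.082 to 0.159, Grin2d −0.039 to 0.120 and Grin3b −0.023 to 0.171; at 180 min, Grin2a −0.326 to 0.0055 and Grin2d −0.021 to 0.138; at 300 min, Grin2a −0.177 to 0.154, Grin2c −0.227 to 0.044, Grin2d −0.062 to 0.097, Grin3a −0.233 to 0.0014 and Grin3b −0.047 to 0.074. The signals of Grin2c and Grin3b, 0.22 and 0.16 above the background mark, limit what could be seen.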
